A study of Mus musculus with 6 samples.

Results

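The matrix metalloproteases (Mmp), the tissue inhibitors of metalloproteases (Timp) and the Adamts proteases were followed in the sciatic nerve of wild-type mice and of mice lacking Plekhg5. The families were chosen with earlier results of these data known, and their genes were taken by name. Every gene symbol made of Mmp, Timp or Adamts and a number was taken, with or without a closing letter a or b, and Mmp23 was left out. This gave 45 of the 39174 genes in the tables, namely 22 Mmp, 4 Timp and 19 Adamts genes. Whole nerves were taken from 3 wild-type mice, whose libraries are numbered 2, 4 and 5, and from 3 Plekhg5-/- mice, numbered 2, 3 and 5. The mice were adult (12 months old), and the labels name no treatment. The labels and methods at hand do not say how the Plekhg5 allele was made, nor the background strain, the sex or any cell type restriction of the loss. Poly(A) RNA was sequenced, and each level below is an FPKM, that is fragments counted relative to transcript length and to library size, rescaled between libraries so that the typical gene had the same level in all 6. A nerve holds Schwann cells, fibroblasts, perineurial cells, vessels and immune cells together, so fewer cells of a type and less RNA per cell cannot be told apart.

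Mmps are zinc proteases that cut collagens, laminins, proteoglycans and many signalling proteins outside the cell. Most are made as inactive proenzymes and need a further cut by plasmin, furin or another Mmp before they work. Timps bind the active site and block it, and Adamts proteases form a related family with thrombospondin repeats that trims proteoglycans, procollagens and von Willebrand factor. In peripheral nerve the gelatinases Mmp2 and Mmp9 are known for remodelling the basal lamina and for opening the blood-nerve barrier after injury.

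No member passed the test over all genes, and the members with the lowest unadjusted p showed a higher level of the inhibitor Timp1 and lower levels of both gelatinases and of the procollagen protease Adamts2 in Plekhg5-/- nerves. Of the 45 members, 36 reached an average of 0.1 FPKM in wild-type or Plekhg5-/- nerves and were tested (16 Mmp, 4 Timp and 16 Adamts), and 9 stayed below it. None of the 36 had an adjusted p under 0.05 with limma, where 0.0376% of the 21285 tested genes did, 0.0094% lower (2 genes) and 0.0282% higher (6 genes) in Plekhg5-/- nerves. The adjusted p-values of the members ran from 0.834 to 0.999. At an unadjusted p under 0.05, 4 members were found (11.1%, against a background of 5.11% of all tested genes): Timp1 on the higher side (background 2.41%) and Mmp2, Mmp9 and Adamts2 on the lower side (background 2.69%). In 7 of 36 members (19.4%) the 3 wild-type and 3 Plekhg5-/- values did not overlap, against 11.6% of all tested genes. Of these, 6 were lower in Plekhg5-/- nerves (background 5.88% lower) and 1 was higher (background 5.69% higher). With FPKM as deposited, without rescaling, 8 members were lower and 1 higher without overlap, against 8.66% and 2.46% of all tested genes. The fold change lay below 0 in 25 of 36 members, or 69.4%, against 48.9% of all tested genes. The median log2 fold change was -0.04 over the members and 0.01 over all tested genes, both on the log2(FPKM + 1) scale, which understates changes of low genes.

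**Figure D1:**
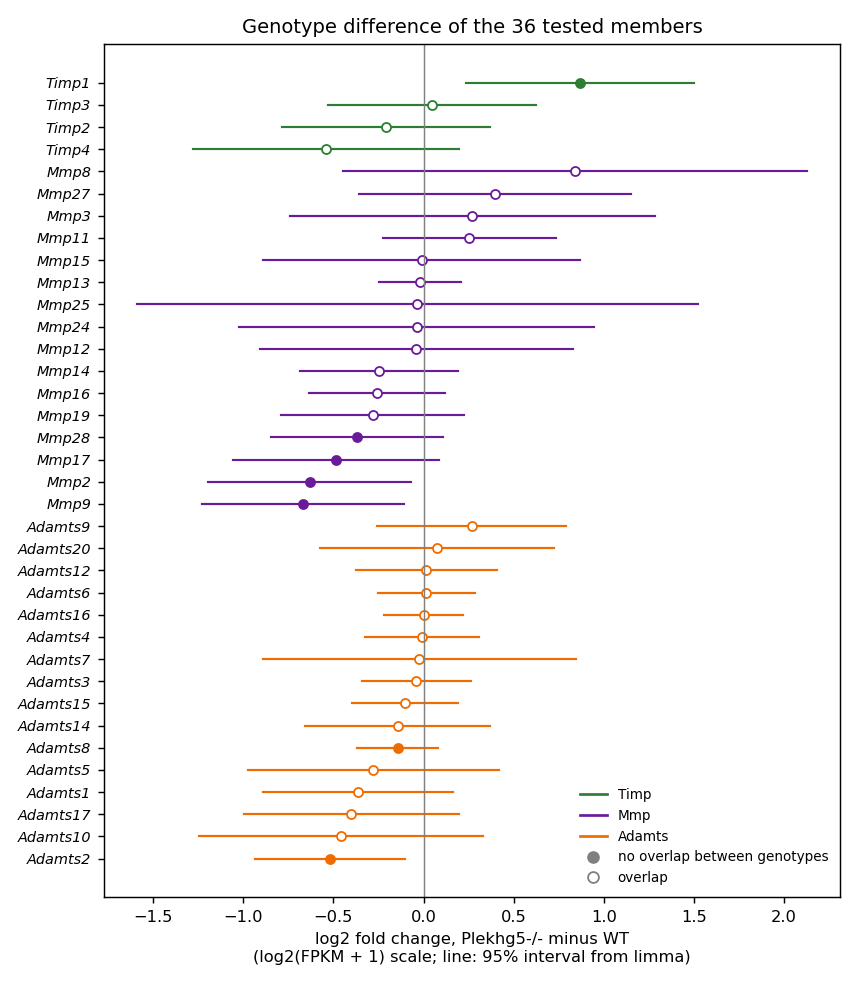
Log2 fold change (Plekhg5-/- minus wild-type, on the log2(FPKM + 1) scale) of the 36 tested members, with lines for the 95% interval from limma; colour gives the family and filled points mark the 7 members whose genotypes did not overlap. Only the intervals of Timp1, Mmp2, Mmp9 and Adamts2 leave out 0, before any adjustment for the number of genes.

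Several facts of the libraries touch the values below. Plekhg5 itself read 3.65, 4.13 and 5.26 FPKM in wild-type libraries 2, 4 and 5 and 0.141, 0.140 and 0.0521 FPKM in Plekhg5-/- nerves 2, 3 and 5, a mean 39.1-fold lower (log2 fold change -2.26 ± 0.18 SE, adjusted p = 0.0380 with limma). No read counts were used, and the intervals beside each FPKM correspond to 5741930 to 11652500 fragments per library. Schwann cell markers were high in every library, with a summed level of 11025 to 19925 FPKM in wild-type and 11564 to 19670 FPKM in Plekhg5-/- nerves. Plekhg5-/- 5 stood apart: haemoglobin transcripts made up 16.0% of its summed FPKM against 0.507% to 2.56% in the others, and all 8 skeletal muscle and all 8 neutrophil markers were highest there. Wild-type 5 was highest for all 8 T-cell markers, at a sum of 123 FPKM against 2.53 to 9.21 FPKM in the other 5 libraries. With 3 animals per genotype the exact permutation test cannot give a p below 0.1, which it gave for each of the 7 members without overlap.

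The inhibitors Timp2 and Timp3 were the most abundant members. Timp2 averaged 261 ± 43.6 FPKM (SD, n = 6 libraries) and Timp3 171 ± 31.4 FPKM, and Timp2 was above Timp3 in 6 of 6 libraries, although their ranges overlapped. Timp3 was separated from the next gene, Mmp2 at 39.9 ± 13.9 FPKM, with no overlap. Below it the neighbours in the order could not be told apart by their ranges: Mmp2 was above Timp4 (39.6 ± 12.6 FPKM) in 4 of 6 libraries, Timp4 above Mmp15 (20.4 ± 6.43) in 5, Mmp15 above Timp1 (13.4 ± 5.77) in 5 and Timp1 above Mmp14 (10.8 ± 1.73) in 3. Adamts5 (9.42 ± 3.04 FPKM), Mmp11 (6.99 ± 1.31) and Adamts2 (5.77 ± 1.41) closed the group of 10 members with a mean of at least 5 FPKM. A further 12 members averaged 1 to 5 FPKM, 13 averaged 0.1 to 1, 6 were above 0 but under 0.1 and 4 were listed at 0 in all 6 libraries.

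**Figure D2:**
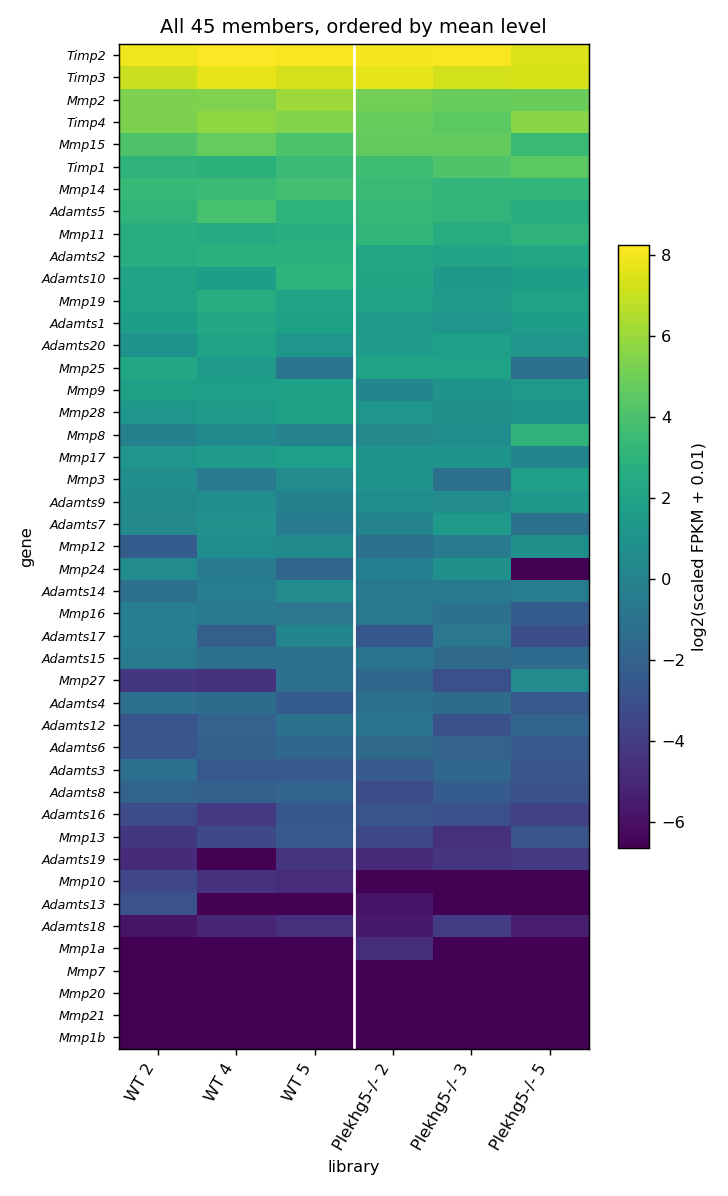
Level of all 45 members as log2(scaled FPKM + 0.01), with a row per gene ordered by mean level and a column per library, wild-type left of the white line and Plekhg5-/- right of it. Timp2 and Timp3 form the bright rows at the top, and the 4 genes at the bottom were listed at 0 in every library.

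Timp1, a secreted inhibitor that binds the proenzyme of Mmp9 and is known as an early response gene of injured tissue, was the member with the lowest p. It read 8.30, 7.48 and 11.5 FPKM in wild-type libraries 2, 4 and 5, and 12.5, 18.0 and 22.3 FPKM in Plekhg5-/- nerves 2, 3 and 5. Every Plekhg5-/- library lay above every wild-type library, and the highest value came from Plekhg5-/- 5. Wild-type nerves averaged 9.09 ± 2.12 FPKM and Plekhg5-/- nerves 17.6 ± 4.92 FPKM (SD, n = 3 each), a 1.94-fold difference. The log2 fold change was 0.87 ± 0.26 (SE, 95% interval 0.24 to 1.5), with a limma p of 0.0143 before and 0.834 after adjustment, and the exact two-sided permutation test gave its smallest possible p of 0.1. Without Plekhg5-/- 5 the log2 fold change was 0.69, and without wild-type 4 it was 0.75 and no longer under an unadjusted p of 0.05. The intervals behind the Timp1 values correspond to 97 to 297 fragments per library.

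Timp1 lies on the X chromosome (chrX:20870166-20874735, GRCm38, plus strand), inside an intron of Syn1, the gene of the synaptic vesicle protein synapsin I, which runs on the other strand. Timp3 and Timp4 likewise lie within Syn3 and Syn2, an arrangement that Timp2 does not share. None of the 888 exon bases of Timp1 coincided with an exon of Syn1, while 1733 of 8144 exon bases of Timp3 and 90 of 5894 of Timp4 were shared with the opposite gene. The sources do not say whether counting used strand, so reads on shared bases could belong to either gene. Syn1 read 66.1, 40.8 and 15.0 FPKM in wild-type and 40.9, 93.3 and 1.56 FPKM in Plekhg5-/- nerves. Timp1 was highest in Plekhg5-/- 5, where Syn1 was lowest. The part of Syn1 reads in the Timp1 values was not tested. The 250 bases before the Timp1 start are shown because Timp1 had the lowest p of the members, with matches to AGGAAG (the core read by Ets factors) and to the GC box GGGCGG, here on the minus strand, in capitals.
Timp1 (chrX:20869916-20870165, GRCm38.p6, plus strand): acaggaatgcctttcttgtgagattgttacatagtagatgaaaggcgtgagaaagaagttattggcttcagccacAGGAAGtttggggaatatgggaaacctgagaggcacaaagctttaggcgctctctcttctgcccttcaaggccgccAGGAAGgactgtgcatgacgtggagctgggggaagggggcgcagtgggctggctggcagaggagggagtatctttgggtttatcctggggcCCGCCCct
The matches to AGGAAG start 175 and 99 bases before the start site, and that to the GC box 8 bases before it. After the start site, counted as base 1, the letters TGAGTAA, a variant of the AP-1 element, begin at base 27, and another AGGAAG begins at base 41.
Timp1 (chrX:20870185-20870214, GRCm38.p6, plus strand): gggtggaTGAGTAAtgcgtccAGGAAGcct
Among 32851 RefSeq promoter windows of 300 bases (250 before and 50 after a start), TGAGTAA on either strand was in 2.68%, AGGAAG in 35.4% and GGGCGG in 35.7%. A match is only a match of letters and says nothing about binding in these nerves.

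The other inhibitors showed no separation of the genotypes on the rescaled values of all 6 libraries. Timp2, which also takes part in the activation of pro-Mmp2 at the cell surface, lies at chr11:118301069-118355740 and read 247, 306 and 281 FPKM in wild-type and 270, 280 and 181 FPKM in Plekhg5-/- nerves. Apart from the low value of Plekhg5-/- 5, the 5 libraries lay close together, and the log2 fold change was -0.21 (95% interval -0.79 to 0.37, adjusted p = 0.976). Without Plekhg5-/- 5 it was -0.01. Timp3, the inhibitor that stays bound to the matrix and also blocks Adamts proteases, lies at chr10:86300372-86349506. It read 135, 213 and 158 FPKM in wild-type and 206, 152 and 161 FPKM in Plekhg5-/- nerves. The groups covered the same range, with a log2 fold change of 0.05 (95% interval -0.53 to 0.62, adjusted p = 0.998), and -0.12 with FPKM as deposited. Timp4 (chr6:115245616-115251849) read 39.5, 55.6 and 43.6 FPKM in wild-type and 27.8, 22.3 and 48.6 FPKM in Plekhg5-/- nerves. The lowest values came from Plekhg5-/- 2 and 3, but Plekhg5-/- 5 lay inside the wild-type range, with a log2 fold change of -0.54 ± 0.31 (adjusted p = 0.974). Without Plekhg5-/- 5 the log2 fold change was -0.86, and without Plekhg5-/- 3 it was -0.31. Timp4 did not overlap between genotypes without Plekhg5-/- 5, where 12.5% of all tested genes were lower without overlap. On the unscaled deposited values of all 6 libraries it was also lower without overlap, as were 8.66% of all tested genes. Its unadjusted limma p was under 0.05 without Plekhg5-/- 5, without both libraries numbered 5, with array weights and on the unscaled deposited values, and no adjusted p was.

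The gelatinases, which degrade denatured collagen and the type IV collagen of basal laminae, were both lower in every Plekhg5-/- library than in any wild-type library. Mmp2 (chr8:92827328-92853417) read 40.1, 41.2 and 66.0 FPKM in wild-type libraries 2, 4 and 5, and 34.4, 27.9 and 29.7 FPKM in Plekhg5-/- nerves 2, 3 and 5. Wild-type 5 was the highest by a factor of 1.60, while the gap between the lowest wild-type and the highest Plekhg5-/- library was small. The Plekhg5-/- average of 30.7 ± 3.34 FPKM stood against 49.1 ± 14.7 FPKM (SD, n = 3 each), a factor of 1.60 below wild type. The log2 fold change was -0.63 ± 0.24 (SE, 95% interval -1.19 to -0.07), with a limma p of 0.0332 before and 0.959 after adjustment against an exact permutation p of 0.1. Without wild-type 5 the log2 fold change was -0.41, and leaving out that library, Plekhg5-/- 3 or Plekhg5-/- 5 each took Mmp2 past an unadjusted p of 0.05.

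Mmp9 (chr2:164940780-164955850), the gelatinase of neutrophils and macrophages, read 3.56, 3.35 and 3.62 FPKM in the wild-type nerves, which hardly varied, and 1.15, 1.98 and 2.58 FPKM in the Plekhg5-/- nerves. Plekhg5-/- 5 was thus the Plekhg5-/- library nearest to wild type. On average this was 1.90 ± 0.721 against 3.51 ± 0.140 FPKM (SD, n = 3 each), a factor of 1.85 below wild type. Limma gave a log2 fold change of -0.67 ± 0.23 (SE, 95% interval -1.23 to -0.11), with p = 0.0261 before and 0.938 after adjustment, against an exact permutation p of 0.1. Without Plekhg5-/- 5 the log2 fold change was -0.85, and without Plekhg5-/- 2 it was -0.47. Leaving out any library but Plekhg5-/- 5 took Mmp9 past an unadjusted p of 0.05. The values rest on intervals worth 16 to 146 fragments per library, the least precise of the 4 members with an unadjusted p under 0.05.

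Marker sums are given beside these genes, and their part in the results was not tested. The 9 fibroblast markers summed to 2242, 2796 and 3454 FPKM in wild-type and to 2665, 2314 and 2057 FPKM in Plekhg5-/- nerves. Wild-type 5 was thus the highest library for this sum as well as for Mmp2. Of the 9 markers, 7 had a log2 fold change below 0 (background 48.9%), with a median of -0.47 over the 9. Only 1, Col3a1, did not overlap between genotypes (background 11.6%), and none had an unadjusted limma p under 0.05 (background 5.11%). The 7 macrophage markers present (Adgre1 was not in the tables) summed to 134, 157 and 309 FPKM in wild-type and 129, 139 and 326 FPKM in Plekhg5-/- nerves. None of them separated the genotypes (background 11.6%). The 8 neutrophil markers summed to 110 to 141 FPKM in wild-type nerves, and to 93.3, 118 and 685 FPKM in Plekhg5-/- nerves 2, 3 and 5. Within the Plekhg5-/- group the libraries fell in the same order for this sum and for Mmp9, while the highest Mmp9 value came from wild-type 5. The part of neutrophils in the Mmp9 values was not tested. The 5 perineurium markers summed to 291, 375 and 389 FPKM in wild-type and 295, 243 and 239 FPKM in Plekhg5-/- nerves. All 5 had a log2 fold change below 0 (background 48.9%). Lypd2 and Msln were without overlap (background 11.6%) and under an unadjusted limma p of 0.05 (background 5.11%). A list of 6 central glia markers, chosen after values of these data had been seen, summed to 24.7, 12.1 and 7.08 FPKM in wild-type and 3.65, 3.94 and 5.47 FPKM in Plekhg5-/- nerves. That low sum separated the genotypes, as did 4 of its genes, Mobp, Slc1a2, Mog and Opalin (background 11.6%). Because the list was chosen with values seen, this is a description only.

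**Figure D3:**
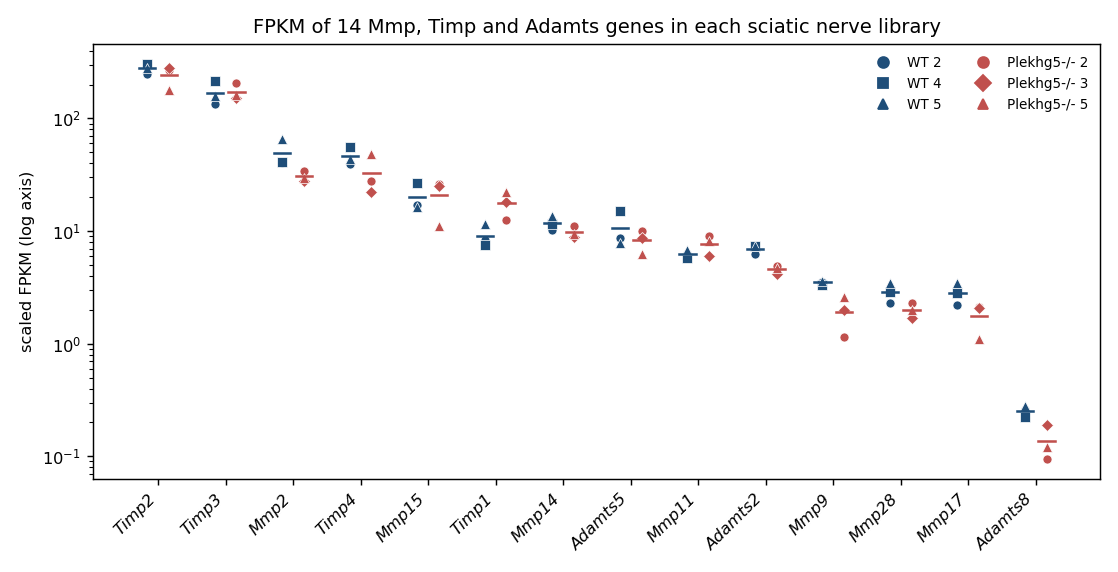
Scaled FPKM on a log axis of the 14 members described singly, in each of the 3 wild-type (blue) and 3 Plekhg5-/- (red) libraries, with marker shape for the library number and short lines for group means. The red points of Timp1 all lie above the blue points, and those of Mmp2, Adamts2, Mmp9, Mmp28, Mmp17 and Adamts8 all lie below.

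The 6 membrane-type Mmps are held at the cell surface and shed or activate other proteins there. All had a log2 fold change below 0, from -0.49 to -0.01 (background 48.9%), but only Mmp17 kept the genotypes apart (background 11.6%). Mmp17 (MT4-MMP, chr5:129584169-129608875) read 2.21, 2.84 and 3.46 FPKM in wild-type and 2.11, 2.06 and 1.11 FPKM in Plekhg5-/- nerves, with wild-type 2 just above Plekhg5-/- 2. Its log2 fold change was -0.49 ± 0.24 (adjusted p = 0.974 with limma). Mmp14 (MT1-MMP, chr14:54431604-54441258), the principal activator of pro-Mmp2, read 10.3, 11.6 and 13.7 FPKM against 11.1, 8.87 and 9.49 FPKM. It overlapped through Plekhg5-/- 2, and its log2 fold change was -0.24 with a 95% interval from -0.68 to 0.19. Mmp15 (MT2-MMP, chr8:95352268-95374293) was the most abundant of the class and read 17.2, 26.5 and 16.4 FPKM in wild-type nerves, with 26.1, 25.2 and 11.01 FPKM in Plekhg5-/- nerves. Both libraries numbered 5 were the lowest, and the log2 fold change was -0.01 (95% interval -0.89 to 0.87). Without Plekhg5-/- 5 it was 0.37.

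Mmp25, a membrane protease of leukocytes anchored by a lipid, split the libraries more sharply: 4.75, 3.01 and 0.567 FPKM in wild-type libraries 2, 4 and 5, and 3.80, 3.91 and 0.431 FPKM in Plekhg5-/- nerves 2, 3 and 5. Both libraries numbered 5 lay far below the other 4. Plekhg5-/- 5 had the highest neutrophil marker sum, and the part of leukocytes in the Mmp25 values was not tested. Mmp24, the membrane-type Mmp best known from brain, read 1.48, 0.725 and 0.289 FPKM in wild-type and 0.842, 1.76 and 7.87e-09 FPKM, in effect 0, in Plekhg5-/- nerves. Its 6 libraries fell in the same order as those of the neuronal gene Syn1. Those of Mmp25 did so too, except that wild-type 2 and Plekhg5-/- 3, the highest for both genes, changed places. A list of 8 central neuron markers, Syn1 among them and chosen after values of these data had been seen, summed to 289, 157 and 76.5 FPKM in wild-type and 132, 391 and 37.3 FPKM in Plekhg5-/- nerves, with the highest and lowest library those of Mmp24. Of the exon bases of Mmp24, 637 of 4683 are shared with a gene on the other strand. The part of either in the Mmp24 values was not tested, nor that of neurons in the Mmp25 values. The sixth of the class, Mmp16, averaged 0.569 FPKM.

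**Figure D4:**
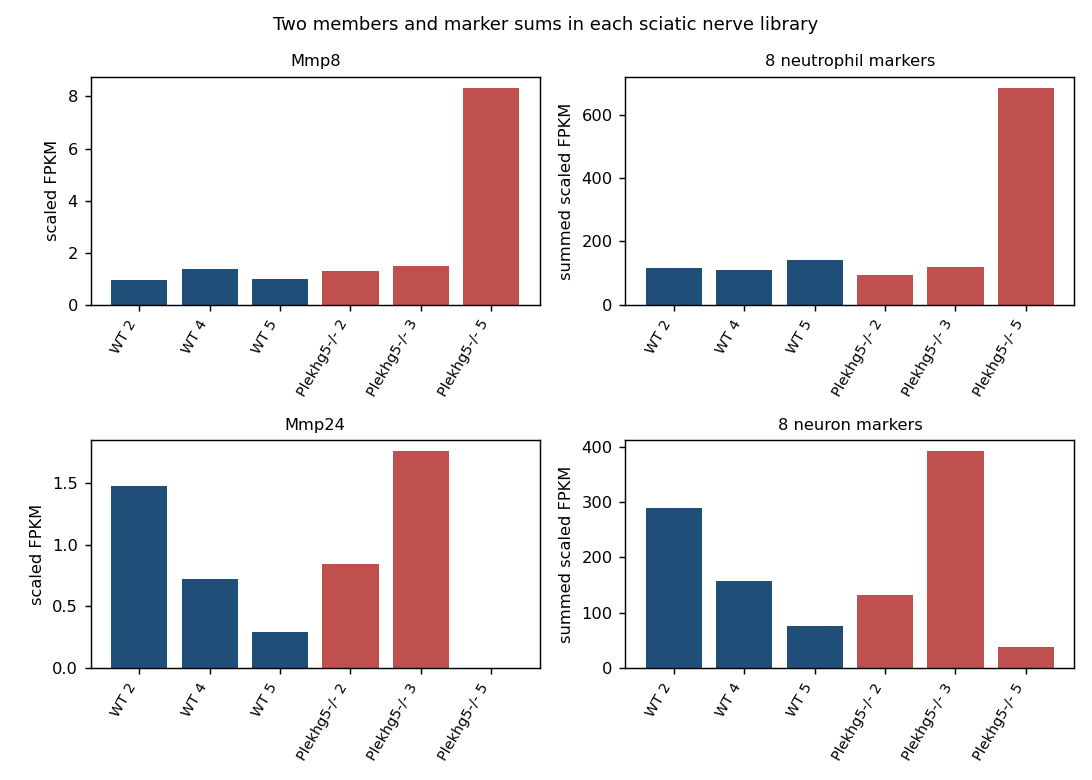
Scaled FPKM of Mmp8 and Mmp24 (left) beside the summed scaled FPKM of 8 neutrophil and 8 central neuron markers (right), with a bar per library, wild-type blue and Plekhg5-/- red. Plekhg5-/- 5 holds the tallest bar for Mmp8 and for the neutrophil sum, while Plekhg5-/- 3 holds it for Mmp24 and for the neuron sum.

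In both libraries numbered 5 together, 7 of the 36 tested members lay below the other 4 libraries: Mmp15, Mmp25, Mmp24, Adamts3, Adamts4, Adamts5 and Adamts7. This is 19.4% of the members, against 17% of all tested genes. The reverse, with both above the other 4, held for Mmp13 and Mmp27, or 5.56% against 15.3%. The labels do not say what the number stands for.

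Of the collagenases, stromelysins and related proteases, 10 of the 22 Mmp genes lie within 427 kb on mouse chromosome 9 (chr9:7272514-7699585), in the order Mmp13, Mmp12, Mmp1b, Mmp3, Mmp1a, Mmp10, Mmp8, Mmp27, Mmp20 and Mmp7. These genes were low in nerve. Their median mean level was 0.0578 FPKM, against 2.73 FPKM for the 12 Mmp genes elsewhere, and 5 of the 10 could be tested against 11 of the 12. What most of them shared in sequence was a match to a loose form of the AP-1 element close before the start. This element is known from the induction of collagenase and stromelysin genes by growth factors and cytokines. The letters TGANTCA, read on both strands, were found in 8 of the 10 promoters of the cluster and in none of the 21 other members with a promoter in the RefSeq table, which did not hold Mmp2 or Mmp9. Over all members 24.2% of 33 windows held it, against 7.81% of the 32851 windows in the table. The matches are printed with 12 bases on each side, read along each gene, with the match in capitals and its first base counted from the start site (GRCm38.p6).
Mmp13 (chr9:7272467-7272497, plus strand, -35): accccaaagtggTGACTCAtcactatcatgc
Mmp12 (chr9:7347318-7347348, plus strand, -44): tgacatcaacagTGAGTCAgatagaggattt
Mmp1b (chr9:7388101-7388131, minus strand, -93): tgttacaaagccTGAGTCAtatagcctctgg
Mmp3 (chr9:7445764-7445794, plus strand, -46): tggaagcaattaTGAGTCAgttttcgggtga
Mmp1a (chr9:7464056-7464086, plus strand, -73): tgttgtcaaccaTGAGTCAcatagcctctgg
Mmp10 (chr9:7502267-7502297, plus strand, -63): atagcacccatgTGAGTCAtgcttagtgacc
Mmp20 (chr9:7628124-7628154, plus strand, -95): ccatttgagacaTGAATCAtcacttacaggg
Mmp7 (chr9:7692015-7692045, plus strand, -63): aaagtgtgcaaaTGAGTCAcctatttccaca
The pattern takes any base in the middle (N), and the Mmp20 match has A there where the others have C or G. The variant of Timp1 shown above differs from this pattern in its letters, and Mmp8 and Mmp27 had no match in their windows.

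Mmp8, the collagenase of neutrophil granules, was the cluster's highest gene with a mean of 2.40 FPKM, and a single library set that mean. It read 0.940, 1.37 and 1.003 FPKM in wild type, 1.29 and 1.48 FPKM in Plekhg5-/- 2 and 3, and 8.33 FPKM in Plekhg5-/- 5, which was 5.62 times the next library. The 5 others overlapped across genotypes, and the log2 fold change of 0.84 had a 95% interval of -0.45 to 2.13. All 8 neutrophil markers were highest in the same library, where S100a9 read 222 FPKM against 34.0 to 43.9 FPKM in the other 5. Their part in the Mmp8 value was not tested. Mmp27 was also highest in Plekhg5-/- 5, at 1.46 FPKM or 3.13 times the next library.

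The remaining genes of the cluster gave no separation. Mmp3 (stromelysin-1), which cuts matrix and activates other Mmps, read 1.58, 0.678 and 1.44 FPKM in wild-type and 1.90, 0.445 and 3.44 FPKM in Plekhg5-/- nerves. Its range within the Plekhg5-/- group was wider than the difference of the means. Mmp12, the elastase of macrophages, read 0.188, 1.499 and 1.32 FPKM against 0.427, 0.665 and 1.67 FPKM, again with overlap, and 157 of its 7237 exon bases are shared with Mmp1b on the other strand. Mmp13 averaged 0.0923 FPKM. Mmp10 read 0.0795, 0.0338 and 0.0265 FPKM in wild-type nerves, with 0 listed for all 3 Plekhg5-/- nerves, but its level was under the limit for testing and stood on at most 2 fragments per library. Mmp1a was above 0 in Plekhg5-/- 2 alone, at 0.0279 FPKM, and Mmp1b, Mmp7 and Mmp20, like Mmp21 on chromosome 7, were listed at 0 in all libraries.

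Of the Mmps outside these classes, Mmp28 (epilysin, chr11:83440768-83463071), a secreted Mmp that furin activates, read 2.30, 2.88 and 3.48 FPKM in wild-type and 2.29, 1.71 and 1.98 FPKM in Plekhg5-/- nerves. The groups touched but did not overlap, and they did overlap when libraries were scaled by their upper quartile. The log2 fold change was -0.37 ± 0.20 (adjusted p = 0.974 with limma), and 466 of its 3874 exon bases are shared with a gene on the other strand. Mmp11 (stromelysin-3, chr10:75923222-75932502), which furin also activates, read 6.20, 5.80 and 6.74 FPKM in wild-type and 9.05, 6.03 and 8.11 FPKM in Plekhg5-/- nerves. Plekhg5-/- 2 and 5 lay above the wild-type range and Plekhg5-/- 3 inside it, with a log2 fold change of 0.25 ± 0.20. Mmp11 shares 155 of 2778 exon bases with Chchd10 on the other strand. Mmp19 read 3.99, 5.87 and 4.18 FPKM against 4.01, 3.02 and 3.90 FPKM, overlapping through Plekhg5-/- 2 alone, with a log2 fold change of -0.28. Of its 3533 exon bases, 789 are shared with Tmem198b and 212 with Gm47093, both on the other strand.

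Among the Adamts genes the procollagen N-proteinases remove the amino-terminal propeptide from fibrillar procollagens. All of them had a log2 fold change below 0 (background 48.9%), with a median of -0.14. Adamts2 (chr11:50602084-50807573), the chief enzyme of the class for type I and III procollagen, read 6.21, 7.34 and 7.39 FPKM in wild-type and 4.88, 4.14 and 4.67 FPKM in Plekhg5-/- nerves. Both groups varied little and lay apart. Plekhg5-/- nerves averaged 4.56 ± 0.382 FPKM and wild-type nerves 6.98 ± 0.669 FPKM (SD, n = 3 each), a factor of 1.53 below wild type. Its log2 fold change was -0.52 ± 0.17 (SE, 95% interval -0.93 to -0.10), with a limma p of 0.0216 before and 0.908 after adjustment and an exact permutation p of 0.1. Leaving out wild-type 4, wild-type 5 or Plekhg5-/- 3 took it past an unadjusted p of 0.05. Its substrate Col3a1 read 68.4, 59.0 and 78.9 FPKM against 58.6, 44.2 and 25.2 FPKM, also without overlap, while Col1a1 and Col1a2 overlapped. Adamts14, at 0.782 FPKM, and Adamts3, at 0.235 FPKM, were low and overlapped.

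The 7 proteoglycanases, which cut aggrecan, versican and brevican, held 5 genes with a log2 fold change below 0 (background 48.9%) and 1 without overlap (background 11.6%). Adamts5 (chr16:85858170-85901125) was the most abundant and read 8.63, 15.1 and 7.91 FPKM in wild-type and 10.02, 8.66 and 6.24 FPKM in Plekhg5-/- nerves. Wild-type 4 stood above the rest by a factor of 1.51, and the log2 fold change was -0.28 with a 95% interval of -0.98 to 0.42. Without wild-type 4 it was -0.02, and without Plekhg5-/- 5 it was -0.11. Adamts1, its neighbour on chromosome 16, read 3.15, 4.84 and 3.56 FPKM against 2.79, 2.21 and 3.29 FPKM, with overlap through Plekhg5-/- 5 alone and a log2 fold change of -0.36. Adamts8 (chr9:30942562-30963838) was the gene without overlap, at 0.260, 0.224 and 0.280 FPKM in wild-type and 0.0945, 0.191 and 0.122 FPKM in Plekhg5-/- nerves. These values stand on 5 to 22 fragments per library, 489 of 4613 exon bases are shared with an antisense gene, and the log2 fold change was -0.14 ± 0.09 (adjusted p = 0.974 with limma). Adamts20 and Adamts9 averaged 2.79 and 1.54 FPKM, Adamts15 and Adamts4 0.465 and 0.326 FPKM, each with overlap.

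Versican, the proteoglycan substrate of several of these enzymes, was itself without overlap, its gene Vcan reading 8.26, 8.56 and 13.7 FPKM in wild-type and 6.30, 6.63 and 7.38 FPKM in Plekhg5-/- nerves (log2 fold change -0.49 ± 0.23, adjusted p = 0.974 with limma). Adamts10, an enzyme tied to fibrillin microfibrils, read 4.12, 3.23 and 7.90 FPKM against 4.27, 2.41 and 3.13 FPKM. Its high value in wild-type 5, 1.85 times the next library, set the wild-type mean, and the groups overlapped. Adamts7 and Adamts12, which cut cartilage oligomeric matrix protein, averaged 1.31 and 0.299 FPKM with log2 fold changes of -0.02 and 0.02. Adamts6, Adamts16 and Adamts17 averaged 0.104 to 0.505 FPKM. Adamts13, which trims von Willebrand factor and is made mainly in liver, as well as Adamts18 and Adamts19, stayed under the limit for testing, at means of 0.0227 to 0.0287 FPKM.

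Timp1 was set against Mmp2 and Mmp9 within each library, and these ratios are a description of the values above with no test. Timp1 stood at 0.207, 0.181 and 0.174 of the Mmp2 level in wild-type nerves 2, 4 and 5. In Plekhg5-/- nerves 2, 3 and 5 it stood at 0.365, 0.645 and 0.752. The ratio of Timp1 to Mmp9 was 2.33, 2.23 and 3.17 in wild-type and 10.9, 9.11 and 8.65 in Plekhg5-/- nerves. With Timp1 higher and both gelatinases lower in every Plekhg5-/- library, the 2 ratios necessarily kept the genotypes apart. The balance of the families as a whole did not: the summed Timp level was 3.41, 3.91 and 3.11 times the summed Mmp and Adamts level in wild-type nerves, and 3.97, 4.16 and 3.81 times in Plekhg5-/- nerves. Timp1 was a small share of all Timp transcript, at 1.28% to 2.33% in wild-type and 2.43% to 5.42% in Plekhg5-/- nerves. Mmp2 made up 41.9%, 38.1% and 53.5% of the summed Mmp level in wild-type nerves and 34.6%, 32.6% and 35.6% in Plekhg5-/- nerves. The summed Mmp level was 95.7, 108 and 124 FPKM against 99.5, 85.7 and 83.5 FPKM, and the summed Adamts level 30.3, 40.8 and 35.3 FPKM against 30.6, 27.8 and 24.6 FPKM, so both sums overlapped.

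**Figure D5:**
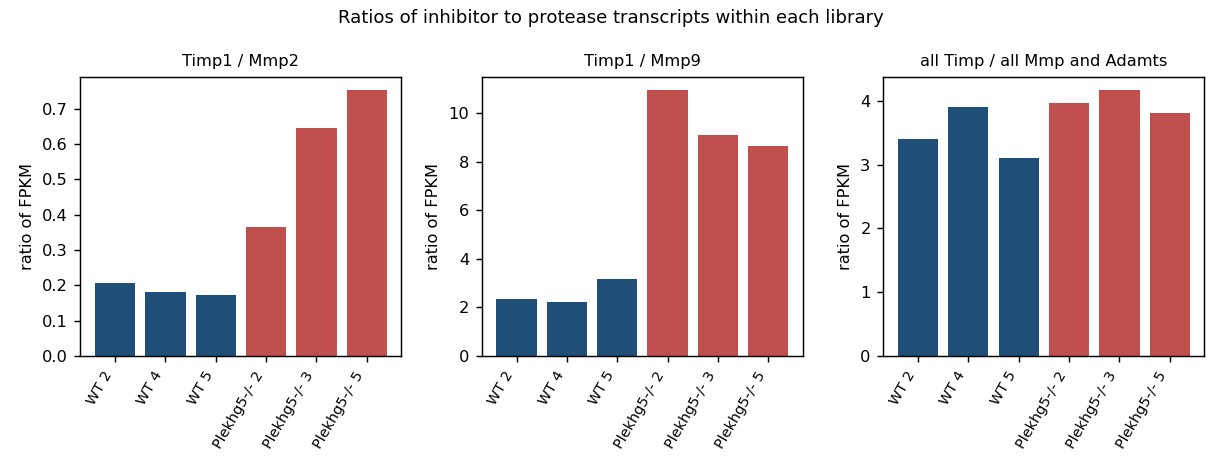
Ratio of scaled FPKM within each library for Timp1 over Mmp2, Timp1 over Mmp9, and all 4 Timps over all Mmp and Adamts genes, with a bar per library, wild-type blue and Plekhg5-/- red. The first 2 panels separate the genotypes, as the non-overlap of Timp1, Mmp2 and Mmp9 requires. Their ranges are 0.174 to 0.207 against 0.365 to 0.752, and 2.23 to 3.17 against 8.65 to 10.9. In the third the highest wild-type bar (3.91) is above the lowest Plekhg5-/- bar (3.81).

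Around these families, 5 further lists of the pathway held no gene with an adjusted p under 0.05 (background 0.0376%). Of 11 activators of matrix proteases, 1 had an unadjusted p under 0.05 (background 5.11%): Klk1, a tissue kallikrein, read 0.810, 0.964 and 1.75 FPKM in wild-type and 5.20, 11.3 and 8.81 FPKM in Plekhg5-/- nerves. It was 7.17-fold higher without overlap, with a log2 fold change of 2.08 ± 0.31 and an adjusted p of 0.273 with limma. Furin, the proprotein convertase that activates Mmp11 and the membrane-type Mmps, was lower without overlap (background 11.6%). It read 7.66, 7.96 and 7.83 FPKM against 7.40, 5.89 and 7.08 FPKM, with an adjusted p of 0.974 from limma. Bsg (the Mmp inducer basigin, mean 234 FPKM in wild-type and 225 in Plekhg5-/- nerves), Cma1, Pcsk6 and Plat were the most abundant of the list and overlapped.

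Of 10 other inhibitors and clearance receptors, 9 had a log2 fold change below 0 (background 48.9%) and 1 an unadjusted p under 0.05 (background 5.11%). This was Serpine2, protease nexin-1, which blocks thrombin, urokinase and plasmin, at 56.4, 74.7 and 69.2 FPKM in wild-type and 43.9, 44.5 and 42.2 FPKM in Plekhg5-/- nerves. Its log2 fold change was -0.60 ± 0.17 with an adjusted p of 0.771 from limma, on the side opposite to Timp1. Cst3, Serping1 and Lrp1, the other abundant genes of the list, overlapped.

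Of 17 substrates tested (of 18 listed), 14 had a log2 fold change below 0, against 48.9% of all tested genes. None had an unadjusted p under 0.05 (background 5.11%). Col3a1 and Vcan were free of overlap, where 11.6% of all tested genes were. The most abundant were Mbp, Col1a2, Col1a1 and Nid1, each with overlap. Among 7 Adamts-like proteins, which share the repeats but lack the protease domain, 1, Adamtsl3, was without overlap (background 11.6%). It was lower, at 2.12, 1.97 and 3.03 FPKM against 1.37, 0.908 and 1.68 FPKM. Its adjusted p was 0.972 with limma, and under 0.05 before adjustment (background 5.11%). Adamtsl5, Adamtsl4, Adamtsl1 and Thsd4 were more abundant and overlapped. None of the 10 membrane Adam proteases had an unadjusted p under 0.05 (background 5.11%) or was free of overlap (background 11.6%). Adam10, Adam15, Adam23 and Adam9 were the highest of them.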

How the data were processed

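RNA of whole sciatic nerves from 3 wild-type and 3 Plekhg5-/- mice was made into poly(A) libraries (SENSE mRNA-Seq kit) and sequenced by the authors, who trimmed reads with Trim Galore 0.4.0, aligned them to GRCm38 with STAR and computed levels with Cufflinks 2.2.1. The deposited tables hold, per gene, an FPKM value with its 95% interval and no read counts. Neither the annotation release nor the strand setting is given in the sources used here. The study's test on reads could not be repeated, and 0 columns of other samples were present. The number of fragments behind a value was taken from its interval, as the squared ratio of the FPKM to its error. For genes with several isoforms this is a lower estimate. Intervals cover counting and isoform assignment, not differences between animals.

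Here libraries were put on 1 scale with factors from the median of ratios (0.745 for Plekhg5-/- 5 to 1.12 for wild-type 4), and genes averaging 0.1 deposited FPKM or more in a genotype were tested on log2(FPKM + 1) with limma 3.58.1 in R 4.3.3, on all 6 libraries (empirical Bayes with trend, Benjamini-Hochberg over 21285 genes, threshold 0.05). Beside it stood a two-sided exact permutation test per named gene. Multiples between means are of scaled FPKM. Groups and numbers came from the sample titles. The genes described singly were Plekhg5, the 4 Timps, each member with a mean of at least 5 FPKM, an unadjusted p under 0.05 or no overlap between genotypes, and of other lists the 4 of highest level. Further members are given for completeness of their class. The members and lists were chosen with earlier results of these data known, and the central neuron and glia lists after values were seen. Overlaps with other genes were read from GENCODE vM21, where 45 of 45 members were found, and promoters from RefSeq (31 members, 33 windows). In all, 18 alternatives were run, covering pseudocount, filter, scaling, variance model, block and left-out libraries.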

Additional observations from a re-analysis of the deposited data

How the results depend on the processing

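No member passed an adjusted p of 0.05 under any of the 18 alternatives, with a lowest adjusted p among members of 0.204 (array weights, for Mmp9) to 0.9996 (without Plekhg5-/- 2). Of the 14 members described singly, only Timp3 and Mmp15 changed direction under an alternative. Members without overlap between genotypes could hardly change direction when a library was left out, so their constancy is no separate result. Adamts8 was fitted in 17 of the 18 alternatives. The log2 fold change ran from 0.68 to 1.08 for Timp1 (p 0.00676 to 0.0515), -0.79 to -0.40 for Mmp2 (p 0.0232 to 0.107), -0.93 to -0.47 for Mmp9 (p 0.00256 to 0.0859) and -0.66 to -0.43 for Adamts2 (p 0.00991 to 0.166).

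Timp3 changed sign with FPKM as deposited (-0.12), without wild-type 2 (-0.0916) and without Plekhg5-/- 2 (-0.087). Mmp15 changed sign with array weights (0.20), with the block (0.0192), without wild-type 4 (0.197), without Plekhg5-/- 5 (0.37) and without both libraries numbered 5 (0.24). With 1 library left out, Timp3 reached up to 0.23 and Mmp15 down to -0.22. The causes were not tested. The median over members was -0.17 with a pseudocount of 0.1, -0.21 with a minimum mean of 1 FPKM (23 members tested, without Adamts8) and -0.14 with FPKM as deposited, where the median of all genes moved to -0.09. It ran from -0.18 to -0.0451 when 1 library was left out.

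Over all genes, 2 were lower and 6 higher. Genes lower were 1 with a pseudocount of 0.1, a minimum of 1 FPKM or robust variances, 0 with no filter or without both libraries numbered 5, and 8 with array weights. Genes higher were 2 with no filter and 14 with array weights. Leaving out 1 library gave 0 lower in each case and 0 to 5 higher. Members at an unadjusted p under 0.05 then numbered 0 to 3 lower and 0 to 1 higher, of 35 or 36 tested. Of all tested genes, 3.67% to 6.31% were under that p in the same settings, both sides together. The lower members dropped to 0 without wild-type 5 and without Plekhg5-/- 3, and Timp1 was lost without wild-type 4.

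The numbers 2 and 5 occur in both genotypes, but the labels do not tie them to a shared litter or day, and the deviations of same-numbered libraries correlated at 0.073 (number 2) and 0.58 (number 5). With the replicate block over these pairs, 0 genes were lower and 0 higher, and Mmp2, Mmp9 and Adamts2 were no longer under an unadjusted p of 0.05. Adamts17, the 1 member on the lower side, and Timp1 and Mmp27, the 2 on the higher side, were. Of all tested genes, 4.47% were, both sides together.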
